A study of Mus musculus with 7 samples.

Results

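The 10 genes described here are known for a burst of transcription in the mouse 2-cell embryo, when the embryonic genome is switched on. Their counts were read in 7 mouse morulae (C57BL/6, 3 days post coitum), each sequenced on its own. The genes are Zfp352, Tcstv1, Tcstv3, Tmem92, Zscan4c, Zscan4d, Zscan4f, Tdpoz3, Tdpoz4 and Usp17la, chosen by symbol from the 26586 symbols of the count table. A row was found for all 10. For Usp17la it was the row Dub1, which RefSeq lists as a synonym of that gene alone, and its values hold only if the authors' annotation used the name for the same locus. Each embryo came from a cross of mice carrying a mutant allele of L13a (L13a+/-, gene symbol Rpl13a). The labels form 1 group of 7 and name neither the genotype of an embryo nor its litter, sex or batch, so no groups were compared. RNA was captured by its poly(A) tail and amplified with SMART-Seq v4, a full-length method that tags no molecules, so PCR duplicates count as reads.

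Transcription of these genes starts as the embryo passes from maternal to zygotic control, and their transcripts are known to be cleared again in later cleavage stages. In mouse embryonic stem cells the same genes mark a rare, transient state that resembles the 2-cell embryo. The homeodomain factor Dux drives much of this programme. Most of the genes belong to families of related copies that lie in clusters.

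Library totals ran from 139619 to 33123742 counts, a 237-fold range, and 1749 to 12064 genes had a count. A count of 0 allows up to 3 counts, which is 0.0906 counts per 1000000 library counts (CPM) in replicate 4, 0.175 in replicate 7, 0.182 in replicate 2, 1.09 in replicate 5, 2.62 in replicate 1, 4.13 in replicate 3 and 21.5 in replicate 6. Intervals and limits here are at 95% confidence or at 3 counts and cover counting error only. Nothing in the labels says that the embryos came from separate litters, so a p-value here reflects variation among 7 libraries, part of which may be technical. Of 25 genes of later preimplantation development (lineage and epithelial genes such as Krt8), replicates 1 to 7 had a count for 5, 19, 5, 25, 4, 2 and 16. Of the 14964 genes with any count, 34.2, 62.7, 23.3, 80.6, 22.6, 11.7 and 59.8% were counted in the same embryos. The late genes were thus counted in full in replicate 4, while in replicates 1, 3, 5 and 6 most of them were at 0, as were most genes. Of 32 oocyte genes they had a count for 22, 26, 17, 15, 7, 11 and 29. In whole-embryo libraries, fewer cells with a transcript and less of it per cell cannot be told apart.

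The 3 Zscan4 genes are nearly identical around their transcription starts, and the sequences are shown because the counts of all 3 lay mostly in the same embryo, replicate 7. Each runs from 250 bases before to 50 bases after the start annotated in RefSeq for GRCm38.p6, on the strand of the gene, and capitals mark the longest stretch common to all 3, of 55 bases. The windows are chr7:11005495-11005794 (plus strand) for Zscan4c, chr7:11166099-11166398 (minus strand) for Zscan4d and chr7:11397665-11397964 (plus strand) for Zscan4f.
Zscan4c: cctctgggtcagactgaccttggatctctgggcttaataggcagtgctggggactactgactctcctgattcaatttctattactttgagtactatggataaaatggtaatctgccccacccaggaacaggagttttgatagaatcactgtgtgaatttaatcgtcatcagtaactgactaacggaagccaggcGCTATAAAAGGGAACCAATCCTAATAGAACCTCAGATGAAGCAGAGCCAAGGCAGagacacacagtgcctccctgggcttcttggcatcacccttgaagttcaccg
Zscan4d: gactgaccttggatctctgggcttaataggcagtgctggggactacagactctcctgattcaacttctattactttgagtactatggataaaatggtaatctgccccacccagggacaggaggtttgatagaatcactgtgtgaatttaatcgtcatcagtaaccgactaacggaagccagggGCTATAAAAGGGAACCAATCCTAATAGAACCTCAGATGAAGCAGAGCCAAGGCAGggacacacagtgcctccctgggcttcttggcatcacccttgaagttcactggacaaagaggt
Zscan4f: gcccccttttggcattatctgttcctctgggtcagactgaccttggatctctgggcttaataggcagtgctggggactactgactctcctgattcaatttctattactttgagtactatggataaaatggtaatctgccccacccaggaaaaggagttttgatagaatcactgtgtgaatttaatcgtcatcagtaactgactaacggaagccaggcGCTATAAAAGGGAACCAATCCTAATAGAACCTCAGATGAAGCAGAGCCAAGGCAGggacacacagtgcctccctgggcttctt
Where they align, Zscan4c and Zscan4f differed at 2 of 277 bases, Zscan4c and Zscan4d at 8 of 289, and Zscan4d and Zscan4f at 7 of 266. The common stretch holds the letters TATAAA, searched on both strands, which begin 54, 65 and 31 bases before the annotated starts of Zscan4c, Zscan4d and Zscan4f. Of all 32851 promoters of that table, 13.6% hold these letters, which were chosen after the sequences had been seen. Tdpoz4, Zfp352 and Usp17la do not hold them in this window. No entry was given for Tcstv1, Tcstv3, Tmem92 and Tdpoz3.

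The promoter of Zfp352, which like Tcstv1 was counted in 5 embryos, is shown for its tandem repeat. It lies at chr4:90218570-90218869 (plus strand, same build), and capitals mark 9 copies of the letters GACAACACAC, the word of 10 bases found most often in it.
Zfp352: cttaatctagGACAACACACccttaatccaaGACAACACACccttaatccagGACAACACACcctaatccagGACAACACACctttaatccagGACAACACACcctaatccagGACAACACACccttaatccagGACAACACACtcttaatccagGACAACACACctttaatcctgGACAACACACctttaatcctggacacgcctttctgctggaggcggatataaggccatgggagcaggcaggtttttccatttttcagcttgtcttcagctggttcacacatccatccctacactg
Of the 32851 promoters of the table, 17 (0.0517%) hold these letters on either strand, and none holds more than 9 copies. The letters were chosen after the sequence had been seen, so the share is a description.

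Of the 10 genes, 8 had a count in at least 1 embryo, as did 14964 of the 26586 genes of the table. Replicate 7 had a count for all 8 of these members. Replicate 1 had a count for 5 members, replicates 2, 3 and 4 for 3 each, replicate 6 for 1 and replicate 5 for 0. The share of all counted genes with a count was 34.2, 62.7, 23.3, 80.6, 22.6, 11.7 and 59.8% in replicates 1 to 7. The summed level of the members was 417, 292, 1414, 19.9, 0, 158 and 1342 CPM in replicates 1 to 7. Replicate 7 held the highest CPM for 7 of the 8, while 18.4% of all 14964 genes with any count were highest there. So were 17 of the 30 counted oocyte genes. The 7 include the 3 Zscan4 genes, which share much of their sequence and are not independent. Replicate 5 had no count for 8 of the 8 and replicate 6 for 7, where 77.4% and 88.3% of all counted genes had none. Both embryos lacked a count for 7 of the 8, and for 70.5% of all counted genes. The remaining 2 members of the 10, Tdpoz3 and Tdpoz4, had no count in any embryo. A mean of 1 CPM was reached by 5 members, namely Zfp352, Tcstv1, Tcstv3, Tmem92 and Usp17la. Of the 26586 genes of the table, 11810 reached it.

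**Figure D1:**
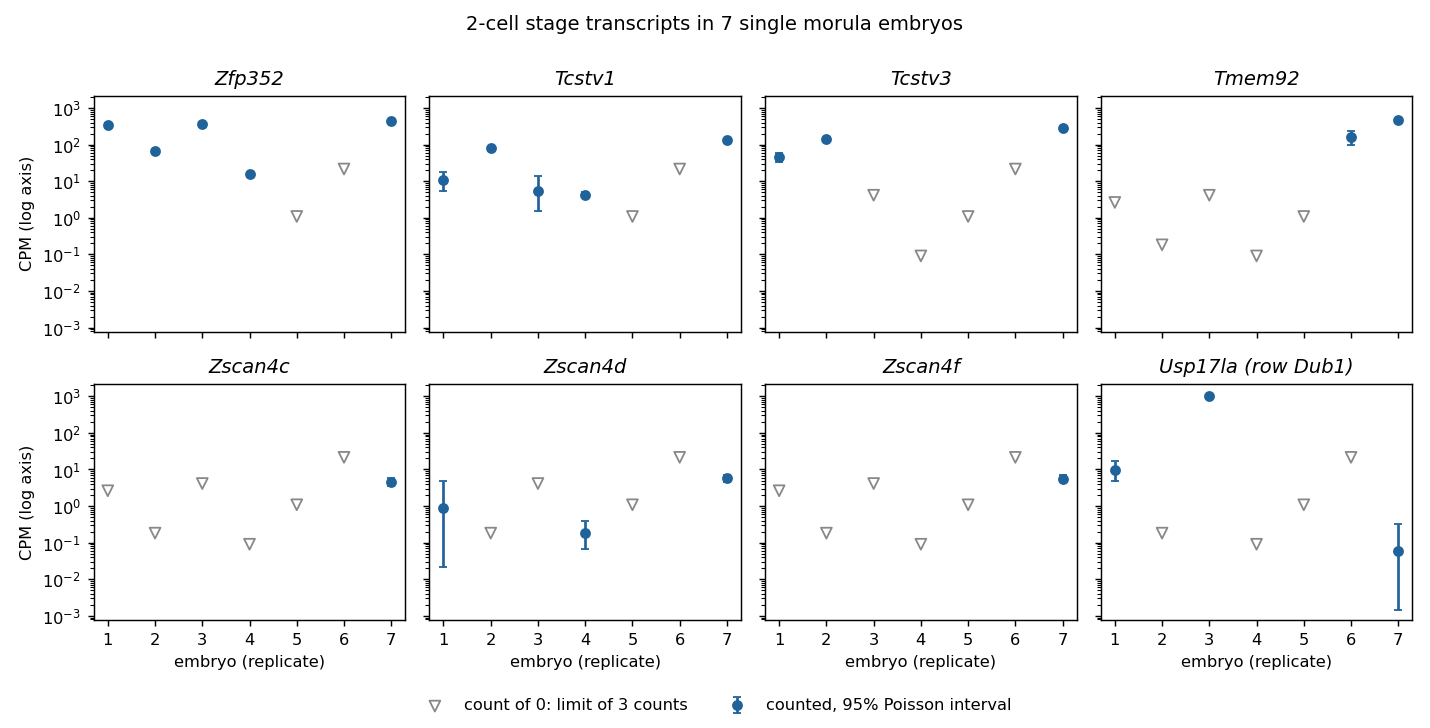
CPM on a log axis against embryo (replicates 1 to 7) for the 8 members with any count. Filled points are counted values with 95% Poisson intervals, and open triangles mark the limit of 3 counts where the count was 0. Replicate 7 is highest in every panel except that of Usp17la, which peaks in replicate 3.

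Zfp352, a zinc finger gene on chromosome 4 (90218820 to 90225702, plus strand, GENCODE M21 on GRCm38; ENSMUSG00000070902.5) had 401, 1115, 272, 511, 0, 0 and 7748 counts in replicates 1 to 7. In CPM this was 351 (95% Poisson interval 317 to 387), 67.8 (63.8 to 71.9), 375 (332 to 422), 15.4 (14.1 to 16.8), 0, 0 and 453 (442 to 463). Replicates 1, 3 and 7 thus formed a high set, replicates 2 and 4 stood lower, and replicates 5 and 6 had none. The order from high to low was 7, 3, 1, 2, 4, and only the neighbours 3 and 1 had overlapping intervals. Replicate 7 was 29.3 times replicate 4 (interval of the ratio 26.8 to 32.1) and at least 417-fold higher than replicate 5. Over the 7 embryos Zfp352 averaged 4.60 ± 4.80 log2 CPM (SD, n = 7), and the median SD of the 11810 genes with a mean of at least 1 CPM was 3.63.

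Tcstv1 and Tcstv3, genes of a family named for its variable 2-cell expression and linked in mouse to telomere length, lie on chromosome 13. Tcstv1 spans 119893388 to 119894785 on the minus strand (ENSMUSG00000096284.2) and Tcstv3 spans 120316878 to 120318178 on the plus strand (ENSMUSG00000095821.2). Tcstv1 had 12, 1330, 4, 141, 0, 0 and 2258 counts in replicates 1 to 7, which is 10.5 (5.42 to 18.3), 80.8 (76.6 to 85.3), 5.51 (upper bound 14.1), 4.26 (3.58 to 5.02), 0, 0 and 132 CPM (126 to 137). Replicates 7 and 2 were high, and the intervals of replicates 1 and 3, and of 3 and 4, overlapped. Its mean was 2.55 ± 3.67 log2 CPM (SD, n = 7).

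Tcstv3 had 52 counts (45.5 CPM, 34.0 to 59.6) in replicate 1, 2356 (143 CPM, 137 to 149) in replicate 2 and 4755 (278 CPM, 270 to 286) in replicate 7. It had 0 in replicates 3, 4, 5 and 6, and averaged 1.83 ± 4.93 log2 CPM (SD, n = 7). The 2 genes were not counted in a fixed proportion. Tcstv1 made up 18.8% of their joint counts in replicate 1 (Clopper-Pearson interval 10.1 to 30.5%), 36.1% (34.5 to 37.7) in replicate 2 and 32.2% (31.1 to 33.3) in replicate 7. In replicate 4 all 141 joint counts were of Tcstv1 (97.4 to 100%), and in replicate 3 all 4 were. Replicate 7 exceeded replicate 4 by at least 3066-fold in Tcstv3 and by 31.0-fold (26.1 to 37.0) in Tcstv1.

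Tmem92, which encodes a transmembrane protein, was counted in 2 embryos. It lies on chromosome 11 from 94777217 to 94782703 on the minus strand (ENSMUSG00000075610.9). Replicate 7 had 7939 counts (464 CPM, 454 to 474), and replicate 6 had 22 (158 CPM, 98.7 to 239). The other 5 embryos had 0, which in replicate 4 allows at most 0.0906 CPM, so replicate 7 was at least 5119-fold higher than replicate 4. The ratio of replicate 7 to replicate 6, the shallowest library, was 2.94 (1.94 to 4.70).

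Markers of the mother's tissue were also counted in replicate 6. Of 18 oviduct and uterine epithelium genes 5 had a count there, with a summed level of 1173, 2671, 365, 63.2, 1.81, 4863 and 352 CPM in replicates 1 to 7, although the oviduct markers Ovgp1, Pax8 and Foxj1 were at 0 in replicate 6. Of 13 blood and stroma genes with a row, 4 had a count in replicate 6, with summed levels of 171, 118, 146, 21.5, 7.96, 4863 and 7.59 CPM, and the leukocyte gene Ptprc was at 0 there. Over all counted genes, 11.7% had a count in replicate 6. The matrix gene Dcn alone had 592 counts in replicate 6. Replicate 7 had a count for 13 of the oviduct genes, Ltf (1984 counts) and Wfdc2 (866) among them, and for 6 of the blood and stroma genes, with Foxj1, Pax8 and Ptprc at 0 and the oviduct marker Ovgp1 at 67 counts (3.91 CPM). Replicate 2 also had a count for 13 of the oviduct genes, and Tmem92 was at 0 there. Over all counted genes, 59.8% had a count in replicate 7 and 62.7% in replicate 2. The part of maternal tissue in the counts of the members was not tested. Of 12 cumulus and granulosa genes, 4 were counted in any embryo, as were 14964 of the 26586 genes of the table. The 4 include Kitl with 2447 counts in replicate 7, Amhr2 with 4746 in replicate 2 and Tnfaip6 with 1 in replicate 5. Foxl2, Fshr and Cyp19a1 were at 0 in every embryo.

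Zscan4 genes encode SCAN-domain zinc finger proteins that in mouse stem cells lengthen telomeres, and all 3 members had low counts. They lie in a cluster on chromosome 7, Zscan4c from 11005745 to 11010547 (plus strand, ENSMUSG00000054272.6), Zscan4d from 11161374 to 11166159 (minus strand, ENSMUSG00000090714.10) and Zscan4f from 11397915 to 11402318 (plus strand, ENSMUSG00000070828.10). Replicate 7 held all 79 counts of Zscan4c (4.61 CPM, 3.65 to 5.75). Zscan4f, with 97 in replicate 7 (5.67 CPM, 4.59 to 6.91), was at 0 elsewhere. Zscan4d had 98 counts in replicate 7 (5.72 CPM, 4.65 to 6.98), 6 in replicate 4 (0.181 CPM, 0.0665 to 0.394) and 1 in replicate 1 (0.874 CPM, 0.0221 to 4.87). A count in replicate 7 alone was found for 680 of 14964 counted genes (4.54%), and a count in exactly 1 embryo, whichever it was, for 27.9%.

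Depth limits what these zeros can show, and the bounds below cover counting error only. The number of counted genes did not follow the library total in every embryo. Replicate 5 had 2764409 counts and 3388 counted genes, and replicate 1 had 1143861 counts and 5121 counted genes. The cause of this difference was not tested. At its level in replicate 7, Zscan4c would have given 153 counts in replicate 4, 75.9 in replicate 2 and 12.8 in replicate 5, where 0 were found, so replicate 7 was at least 50.9, 25.3 and 4.25-fold higher than these. The same level would have given 5.28 counts in replicate 1, 3.35 in replicate 3 and 0.644 in replicate 6, so there it was at or near the limit of detection. For Zscan4d the ratio of replicate 7 to replicate 4 was 31.6 (14.0 to 88.2). On the log2 scale Zscan4c averaged -1.45 ± 1.66, Zscan4d -0.94 ± 1.77 and Zscan4f -1.40 ± 1.76 (SD, n = 7). In the authors' log2 table Zscan4d stands higher in replicate 1 (1.97, from 1 count) than in replicate 7 (98 counts).

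In replicate 7 the shares of Zscan4c, Zscan4d and Zscan4f in their 274 joint counts were 28.8% (23.5 to 34.6), 35.8% (30.1 to 41.8) and 35.4% (29.7 to 41.4), with overlapping intervals. All 6 Zscan4 rows of the table were counted in that embryo. Zscan4a had the most, 245 counts (14.3 CPM), and it is annotated as a pseudogene in GENCODE M21. Zscan4e had 35 counts and Zscan4b 6. Together the 6 rows had 560 counts in replicate 7 and 2, 1, 0, 6, 0 and 0 in replicates 1 to 6.

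Tdpoz3 and Tdpoz4, genes with TRAF-like and BTB/POZ domains on chromosome 3 (93826020 to 93827117 and 93796398 to 93797510, both plus strand), had no count, which in replicate 4 allows up to 0.0906 CPM. Other genes of the family were counted. Tdpoz1 had 602 counts in replicate 7 (35.2 CPM), 205 in replicate 4 (6.19 CPM) and 5, 4 and 2 in replicates 2, 3 and 5. All 103 counts of Tdpoz2 were in replicate 4. Tdpoz8, under its older symbol Gm4858, had 400 counts in replicate 2, and Tdpoz9, under Gm9125, had 27 in replicate 3 and 32 in replicate 7. The 7 rows of the family summed to 24.6, 42.7, 9.33 and 39.1 CPM in replicates 2, 3, 4 and 7.

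Usp17la encodes a deubiquitinating enzyme, known from lymphoid cells as an immediate-early gene induced by cytokines. It lies on chromosome 7 from 104857009 to 104862667 on the plus strand (ENSMUSG00000054568.7). Among the 8 counted members it was the 1 that was not highest in replicate 7. Replicate 3 had 750 counts (1033 CPM, 961 to 1110), and replicate 1 had 11 (9.62 CPM, 4.80 to 17.2), while replicate 7 had 1 (0.0584 CPM). The other 4 embryos had 0. Replicate 3 was 107 times replicate 1 (59.7 to 216) and at least 5668-fold higher than replicate 2. The other counted genes of the family, also matched by synonym, peaked in other embryos. Usp17lb (row Dub1a) had 3074 counts in replicate 2 (187 CPM) and 0 in all others. Usp17lc (row Usp17l5) had 1985 in replicate 7 (116 CPM), 264 in replicate 2, 19 in replicate 4 and 2 in replicate 1. Usp17le (row Dub3) had 179 in replicate 7 and 53 in replicate 4, and Usp17ld (row Dub2a) was at 0 throughout.

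**Figure D2:**
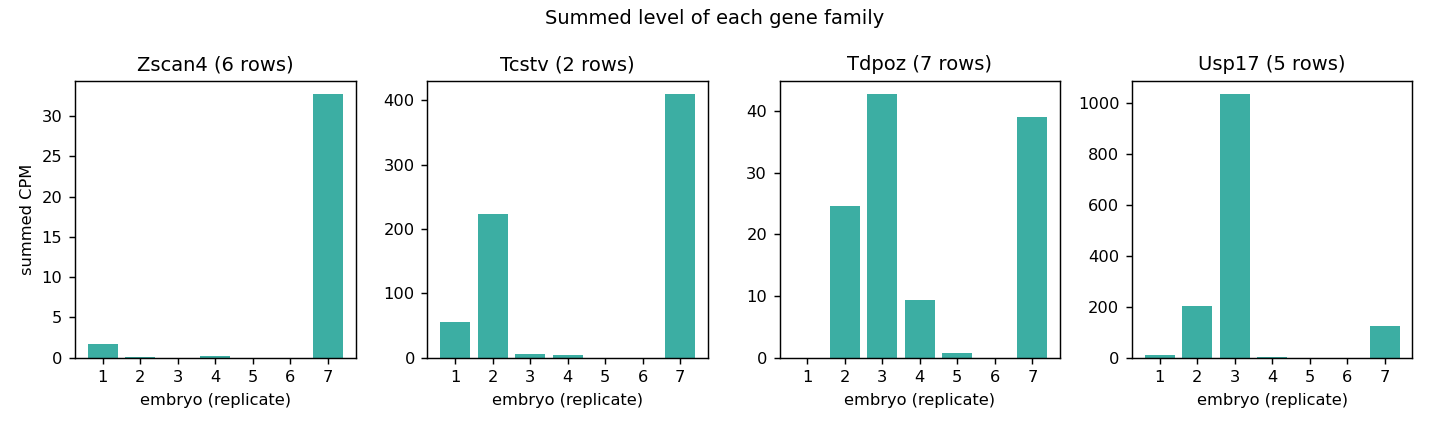
Summed CPM of the rows taken for each gene family (bars, each panel with its own axis from 0) against embryo (replicates 1 to 7). For Tcstv these are Tcstv1 and Tcstv3 only. The Zscan4 and Tcstv families are highest in replicate 7, at 32.7 and 410 CPM, and the Usp17 family in replicate 3, at 1033 CPM.

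How much of each transcript is shared with other genes was measured on the GENCODE M21 transcripts, as the share of all windows of a fixed length that also occur, on either strand, in a transcript of another gene. At 50 bases the share was 86.8% for Zscan4f, 85.5% for Zscan4c, 66.2% for Tdpoz3, 49.6% for Zscan4d, 41.2% for Tdpoz4, 31.4% for Tcstv3, 20.1% for Usp17la, 15.0% for Tcstv1, 7.10% for Zfp352 and 1.93% for Tmem92. At 100 bases it was 80.6% for Zscan4f, 72.8% for Zscan4c, 46.8% for Tdpoz3, 29.6% for Zscan4d and 11.6% for Tdpoz4. It was 7.79% for Tcstv3, 3.83% for Usp17la, 3.58% for Tcstv1, 0.643% for Zfp352 and 0% for Tmem92. Zfp352 and Tmem92 thus have mostly sequence of their own. Levels of Zscan4c, Zscan4d, Zscan4f, Tdpoz3 and Tdpoz4 are uncertain, since the sources name no rule for reads that map to several positions. The gene sharing most with Zscan4c and Zscan4f at 50 bases was Zscan4-ps2, for which no count was analysed here. No other annotated gene overlaps any of the 10 loci.

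**Figure D3:**
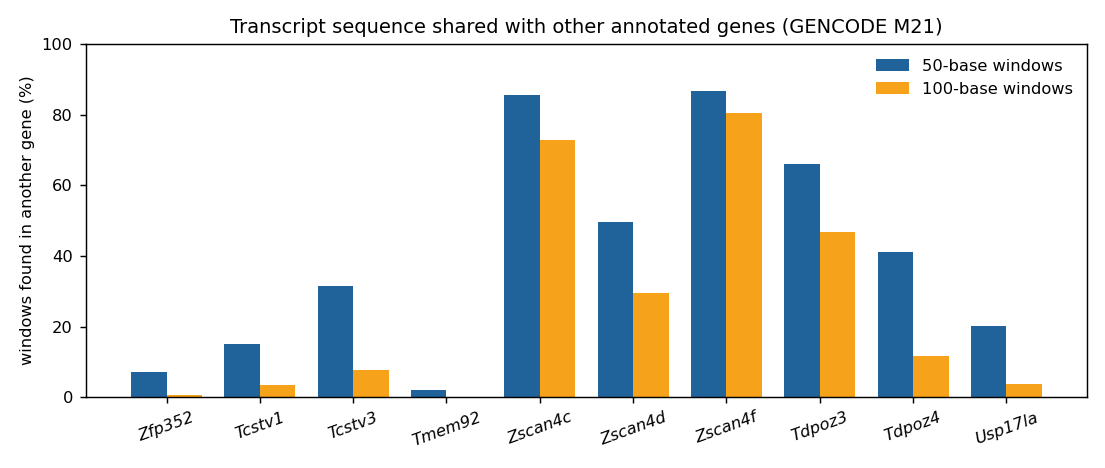
Percentage of 50-base and 100-base windows of each member's transcripts that also occur in a transcript of another annotated gene (bars). Zscan4c and Zscan4f exceed 70% at both lengths, and Tmem92 and Zfp352 stay under 10%.

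Per kilobase of annotated exon, the members counted in replicate 7 fell in the order Tcstv3 (356 CPM per kb), Tmem92 (212), Zfp352 (199), Tcstv1 (94.3), Zscan4f (2.89), Zscan4d (2.52), Zscan4c (2.03) and Usp17la (0.0220). In replicate 2 the order was Tcstv3 (184), Tcstv1 (57.8) and Zfp352 (29.8), and in replicate 1 it was Zfp352 (154), Tcstv3 (58.4), Tcstv1 (7.50), Usp17la (3.62) and Zscan4d (0.385). Zfp352 thus stood above both Tcstv genes in replicate 1 and below both in replicate 2. In replicate 3 Usp17la led with 389 CPM per kb, ahead of Zfp352 with 165 and Tcstv1 with 3.94.

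Zfp352 and Tcstv1, the members counted in at least 4 embryos, were set against the mean log2 CPM of the oocyte genes, which was 5.57, 6.73, 3.99, 0.18, -0.70, 1.45 and 8.01 in replicates 1 to 7. The 3 most abundant oocyte genes by mean were Omt2b, Oog3 and Omt2a, with 6719, 1749 and 3198 CPM in replicate 7. For Tcstv1 Pearson's r was 0.862 (two-sided exact permutation p 0.0163, adjusted 0.0325 over the 2 relations tested) and Spearman's rho 0.865 (exact p 0.0167, adjusted 0.0333). Both embryos without a Tcstv1 count, replicates 5 and 6, were among the 3 of lowest oocyte level. The 0 in replicate 6 allows up to 21.5 CPM, above the counted levels in replicates 1, 3 and 4. Both r and rho nevertheless place replicate 6 at the floor, so its rank for Tcstv1 is not known. Without replicates 5 and 7, the embryos farthest from the median oocyte level, r was 0.704 (exact permutation p 0.183). With so few embryos left a low p is hard to reach, so the lost call cannot be assigned to replicates 5 and 7. With the log2 library total, r of Tcstv1 was 0.661 (exact permutation p 0.106, adjusted 0.106; rho 0.595, exact p 0.173, adjusted 0.173), and the part of depth in the oocyte relation was not tested. For Zfp352 a gap of 0.594 of the range separates the 2 embryos at 0 from the rest, above the limit of 0.5 set for a pooled r, so no relation was tested. For Tcstv1 the gap was 0.473, just under that limit. The oocyte list was chosen with earlier results of these data known. Without replicate 1, 2, 5 or 7 the Tcstv1 relation missed the threshold with 6 embryos left, with adjusted exact permutation p of 0.0722, 0.0944, 0.0681 and 0.128, while r was 0.879, 0.836, 0.800 and 0.800.

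**Figure D4:**
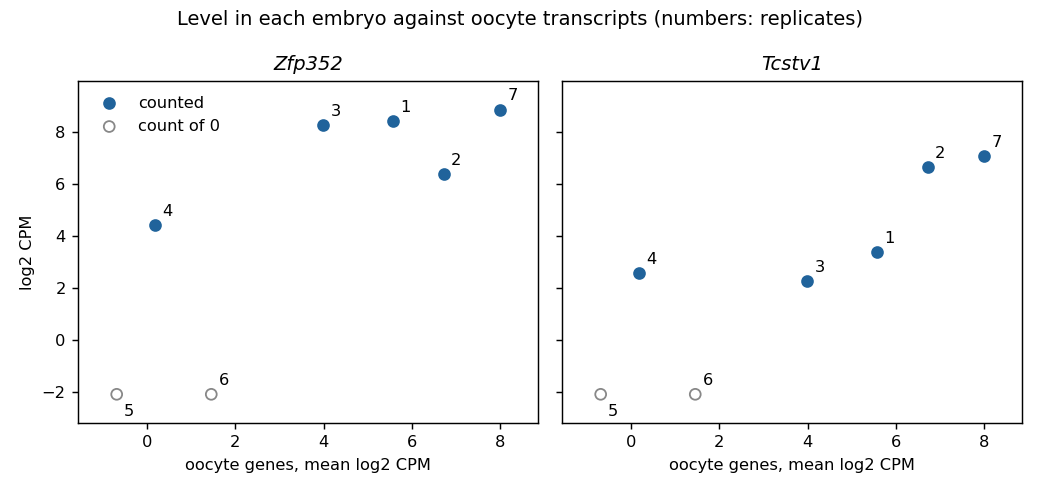
Log2 CPM of Zfp352 and Tcstv1 against the mean log2 CPM of the oocyte genes, with 1 point per embryo (numbers are replicates) and open points for a count of 0. Replicate 7 is highest on both axes, and replicates 5 and 6 have no count of either gene.

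The genes closest to Zfp352 in pattern, by the root mean square difference of centred log2 CPM over the 7 embryos among 5281 genes counted in at least 4, were Ceacam20 (0.46) and Senp1 (0.50), where the median gene stood at 4.42. Ceacam20, a cell adhesion gene, had 648, 40.4, 282, 14.7, 0, 0 and 395 CPM in replicates 1 to 7. Senp1, a SUMO protease gene, had 245, 51.7, 205, 25.9, 0, 0 and 293 CPM. For Tcstv1 the closest were Ccdc132 (0.67) and Zcchc14 (0.68), with a median of 3.51 over all genes. Ccdc132 had 14.9, 88.4, 5.51, 17.2, 0, 0 and 135 CPM. Zcchc14 had 34.1, 67.2, 9.65, 8.42, 0.362, 0 and 158 CPM. These likenesses are descriptions over 7 embryos, with no test.

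Other genes of the 2-cell programme had counts in each of the 7 embryos. Of 39 further 2-cell genes with a row, 33 had a count in any embryo, as did 14964 of the 26586 genes of the table. A count in replicates 1 to 7 was found for 17, 26, 18, 26, 9, 7 and 31 of the 39. Of all 14964 counted genes, 34.2, 62.7, 23.3, 80.6, 22.6, 11.7 and 59.8% had a count in the same embryos. The highest CPM fell in replicate 7 for 9 of the 33, and for 18.4% of all counted genes. E330034G19Rik, the most abundant by mean, had 1074, 160, 1640, 0, 0, 1318 and 1392 CPM. Zfp809, which encodes a zinc finger protein that silences retroviruses, reached 4061 CPM in replicate 6 (567 counts). Fbxo15, an F-box gene also active in pluripotent cells, had 454, 210, 519, 960, 690, 0 and 87.3 CPM. Dux itself was not analysed here.

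Known activators and repressors of the 2-cell programme were counted in every embryo. Of 30 such genes 18, 28, 18, 29, 21, 8 and 26 had a count in replicates 1 to 7, and the highest CPM fell in replicate 4 for 11 of the 29 counted and in replicate 7 for 1. Over all counted genes, 35.6% were highest in replicate 4, a share near that of these genes, and 18.4% in replicate 7. The shares of all counted genes with a count in replicates 1 to 7 were 34.2, 62.7, 23.3, 80.6, 22.6, 11.7 and 59.8%. Rif1, which restrains the programme in mouse stem cells, had 630, 745, 1531, 135, 963, 1762 and 814 CPM. Trim28, the corepressor that silences endogenous retroviruses, had 138, 319, 675, 796, 409, 0 and 236 CPM. The nucleolar gene Ncl had 28.0, 334, 2949, 1204, 55.7, 0 and 57.1 CPM. Among 13 paralogs of the members with a row, 10 had a count in any embryo, as did 14964 of the 26586 genes of the table. Replicate 7 was highest for 6 of these 10, and for 18.4% of all counted genes.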

How the data were processed

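Counts per gene symbol in 7 single embryos were taken as deposited by the authors, with no normalization. A log2 table deposited by the authors, with the same minimum and maximum in every column, served as an alternative. Per the submitters' processing notes, HISAT2 2.0.5, featureCounts 1.5.0-p2 of Subread, limma and build GRCm38 were used. Their settings, annotation, use of strand and handling of multi-mapping reads: not given in the sources used here. CPM are counts over the library total. Log2 CPM used TMM factors from the 11810 genes averaging at least 1 CPM and a prior count of 2 (edgeR 4.0.16, R 4.3.3). Relations used two-sided exact permutation tests with Benjamini-Hochberg adjustment at 0.05. They were tested for members counted in 4 or more embryos, where no gap between neighbouring values exceeded 0.5 of the range. The scripts were tested on simulated data. Positions and windows came from GENCODE M21, promoters and synonyms from RefSeq GRCm38.p6. Of 199 list entries besides the members, 182 had a row, 12 of them under a synonym. The named genes were the members, the 3 genes of highest mean CPM of each list and the 2 genes of closest pattern per widely counted member, and paralogs were added as a whole list. Single maternal tissue markers named beside Tmem92 were picked after their values were seen. Members and lists were chosen with earlier results of these data known. Replicates 1 to 7 follow the labels, all columns were used, and no pair of libraries agreed within sampling noise (lowest chi-square per degree of freedom 168).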

Additional observations from a re-analysis of the deposited data

Results flagged for a closer look

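Zscan4c in replicate 7 stood apart from the other embryos, at 2.31 log2 CPM, because all 6 others had a count of 0. Zscan4f in replicate 7 stood apart in the same way, at 2.59 log2 CPM. Chance flags about 1 in 20 groups of normally distributed values. In these data, with their many zeros, 27.9% of all counted genes had a count in exactly 1 embryo and so would stand apart in the same way. The transcripts of these genes share most of their sequence, so they are not independent cases.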

How the results depend on the processing

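No paired analysis was possible because all embryos form 1 group. Of 104 alternative values of the members' mean log2 CPM, 103 moved by less than 1 SD over embryos. The exception was Zscan4c with a prior count of 0.5, at -3.17. Leaving out 1 of 7 embryos cannot by itself move a mean by 1 SD, so the values from those settings were no check. The number of members highest in replicate 7 was 7, and 6 with DESeq2 size factors (DESeq2 1.42.0) or the authors' log2 table. Leaving out 1 replicate gave 0 to 7, with 0 only where replicate 7 itself was left out. The number of relations past the threshold was 1. It was 0 with the authors' log2 table (r of Tcstv1 with oocyte transcripts 0.890, adjusted exact permutation p 0.0587 over 4 relations) and 0 with the log2 of the summed oocyte CPM (r 0.712, adjusted exact permutation p 0.106). Leaving out 1 replicate gave 0 to 1. DESeq2 size factors, a prior count of 0.5 and leaving out replicate 3 gave no value, because the gap rule then barred every relation. All 24 alternative values of the 2 tested relations kept their sign. These include the values of Tcstv1 against library total, which was never called. Only the relation of Tcstv1 to oocyte transcripts had a call to lose, and 6 of its alternative values lost it. The cause was not tested. With library totals alone all 4 genes of closest pattern were kept, and with a prior count of 0.5 3 were. Zeros in replicate 6 limit any level to 21.5 CPM or below and do not show absence.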
